A study of Mus musculus with 6 samples.

Results

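Conventional CD4 T cells of the aged mouse lung were taken from 6 single-cell RNA sequencing libraries by a rule on raw counts of unique molecular identifiers (UMIs), each of which stands for 1 captured transcript. They were chosen by 1 or more UMIs of Cd3e and of Cd4 and by no UMI of Foxp3, Il17a, Il17f, Il23r, Cd8a, Trdc, Cd79a or C1qa. The zero counts leave out regulatory T cells (Foxp3), type 17 cells (Il17a, Il17f, Il23r), CD8 T cells (Cd8a), gamma-delta T cells (Trdc), B cells (Cd79a) and macrophages (C1qa). A barcode also needed 500 genes, 1000 UMIs and a mitochondrial share of no more than 15%. Of 88616 barcodes within these limits, 7906 held a Cd3e UMI and 1535 met the whole rule.

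All mice were male C57BL/6 mice of 21 months that carried p16-CreERT2, a tamoxifen-inducible Cre recombinase driven by the promoter of p16 (Cdkn2a). Those of the 3 libraries labelled p16-DTR also carried R26-LSL-DTR, a diphtheria toxin receptor that Cre switches on, and those of the 3 control libraries carried p16-CreERT2 alone. Both groups were given tamoxifen on 5 days and, 2 weeks later, diphtheria toxin on 5 days, and lungs were taken 2 weeks after that, so the groups differ in the receptor and not in the agents. Each library mixed 20000 sorted CD45-negative with 9000 sorted CD45-positive lung cells, so the sort bears on the share of leukocytes in a library. Barcodes with a UMI of Ptprc, the gene of CD45, were 30.7%, 32.7% and 35.5% of those within the limits in the control libraries. They were 38.1%, 41.0% and 45.04% in libraries labelled p16-DTR, all above the controls.

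CD4 T cells recognise peptides on MHC class II molecules through a T cell receptor bound to the CD3 chains, with CD4 as coreceptor. Naive and central memory cells recirculate through lymph nodes with the homing receptor CCR7 and are kept quiescent by transcription factors such as TCF-1, LEF1, SATB1 and BACH2. Effector and resident memory cells lose that program, stay in tissues such as the lung, and can take up helper states or, with age, a cytotoxic state marked by granzymes, NKG7 and the chemokine CCL5.

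Cdkn2a, the target of the depletion, was checked first. Over whole libraries it stood at 7.10, 8.57 and 7.31 UMIs per 1000000 in libraries labelled p16-DTR and at 1.15, 2.60 and 2.84 in the control libraries, so that it was higher where its expressing cells were to be removed. Directions below therefore hold for the libraries as labelled. The feature tdTomato had no UMI in the 3 control libraries, which allows up to 0.0118 UMIs per 1000000 in each, and 0.251 to 0.314 UMIs per 1000000 in libraries labelled p16-DTR. Any 2 libraries shared between 59 and 94 cell barcodes. Replicates of a group differed by more than counting error, with a chi-square statistic of 4.15 to 9.72 per degree of freedom over summed counts of these cells. No batch or date is given in the labels.

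The libraries labelled p16-DTR contributed 210, 343 and 395 conventional CD4 T cells and the control libraries 147, 168 and 272. The median cell held 14546, 14452 and 13552 UMIs in the former and 15694, 15194 and 15800 in the latter. The control medians all lay above the others, which is why shares of cells with a UMI are given below after each cell was thinned to 5000 UMIs. Summed over cells, a library held between 2737171 and 6593408 UMIs of these cells.

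The rule was met narrowly by some cells. Between 10.1% and 13.2% of the cells in a library held a single Cd4 UMI. Of the barcodes that failed on 1 zero count alone, 216 failed on Foxp3, 145 on Il23r, 74 on Cd79a, 41 on C1qa, 26 on Trdc, 21 on Cd8a, 16 on Il17a and 13 on Il17f. Those that failed on Il23r alone were 33 in libraries labelled p16-DTR and 112 in the controls.

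The label was checked against Cd5 and Tnfsf8, which the rule did not use; both were frequent, but neither marks conventional cells off from every CD4 cell that the rule leaves out. Cd5, an inhibitory receptor of T cells (ENSMUSG00000024669, chromosome 19, 10717116 to 10739002 in GRCm38), was found in 71.3% ± 3.14 of thinned cells in libraries labelled p16-DTR and in 72.7% ± 2.87 in the controls (SD, n = 3). Tnfsf8, which encodes the CD30 ligand, was found in 40.4% ± 2.95 and 49.0% ± 4.83 (SD, n = 3). As a measure of free RNA, barcodes with at least 10 UMIs each of the neutrophil genes S100a8 and S100a9 and no Cd3e held Cd5 in 0.766% and Tnfsf8 in 0.162% of cases, at a median of 10954 UMIs against 14550 in the CD4 cells before thinning. Cd5 had a mean of 522 counts per 1000000 UMIs (CPM) in Foxp3-positive cells against 430 CPM here, and Tnfsf8 had 1285 CPM in pooled Il17a or Il17f cells against 489 CPM in pooled conventional cells. These pools differ in make-up, as 267 of 298 Il17a or Il17f cells but 587 of 1535 conventional cells came from the controls. Conventional cells of the control libraries had a mean of 672.5 CPM of Tnfsf8. Of genes typical of regulatory cells, Ctla4 was found in 64.8% ± 3.29 and 65.5% ± 2.37 of thinned cells and Ikzf2 in 31.5% ± 3.23 and 36.1% ± 6.90 (SD, n = 3). Their mean levels were 735 and 256 CPM here against 2315 and 2062 CPM in Foxp3-positive cells. Leaving out cells with a UMI of type 17 markers that the rule did not use took the cells from 948 to 598 and from 587 to 331. Summed counts of Cd5 ranged from 385 to 514 CPM over the libraries. The CD8 gene Cd8b1, which the rule did not test, stood at 2.44 to 9.10 CPM.

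Conventional cells made up 20.5% ± 1.13 of barcodes with a Cd3e UMI in libraries labelled p16-DTR and 17.7% ± 1.91 in the controls (SD, n = 3). The single values were 19.2%, 21.4% and 20.8% against 15.6%, 19.4% and 18.1%. The groups overlapped, as control 2 lay above p16-DTR 1, and the exact two-sided permutation test gave p = 0.2. Among barcodes with a UMI of Ptprc they made up 5.13% ± 1.11 and 3.97% ± 1.02 (SD, n = 3, exact permutation p = 0.3). With 3 libraries against 3, no exact p can go below 0.1.

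Among CD4 T cells the groups differed in the cells that the rule leaves out. Of barcodes with Cd3e and Cd4, the conventional gate took 69.5%, 77.4% and 69.9% of them in libraries labelled p16-DTR, against 46.5%, 44.9% and 52.2% in the controls. Cells with Il17a or Il17f took 2.82% ± 3.13 and 22.7% ± 5.46 of the same barcodes (SD, n = 3), which is 31 cells against 267. Foxp3-positive cells took 11.9%, 7.90% and 13.3% against 8.54%, 7.22% and 9.21%. These shares follow from the genes of the rule and are given without a test.

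**Figure D1:**
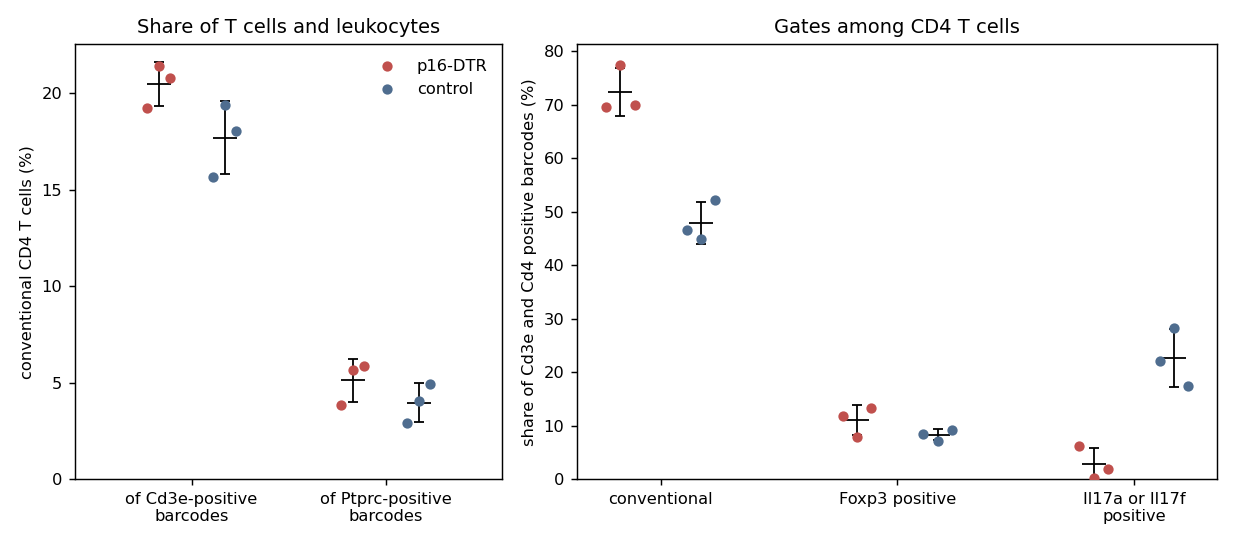
Left, conventional CD4 T cells as a percentage of barcodes with a Cd3e or a Ptprc UMI; right, shares of barcodes with Cd3e and Cd4 taken by the conventional gate, by Foxp3-positive cells and by Il17a- or Il17f-positive cells. Each point is 1 library, and bars give the mean and SD of 3 libraries; the Il17a or Il17f gate runs from 0.226% to 6.29% in p16-DTR and from 17.5% to 28.3% in control.

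Expression was compared on UMIs summed per library, across 12159 genes with enough counts. edgeR's quasi-likelihood test called no gene after Benjamini-Hochberg adjustment at 0.05 (0.0% of genes), and the smallest adjusted p was 0.0707. At an unadjusted p below 0.05 there were 1517 genes, 12.5% of those tested, of which 799 (6.57%) were higher and 718 (5.91%) lower in libraries labelled p16-DTR. In 1351 genes (11.1%) all 3 of these libraries lay above all 3 controls, and in 946 (7.78%) all lay below. DESeq2 called 263 genes on the same counts (2.16%), 161 higher (1.32%) and 102 lower (0.839%), and so the number of calls depends on the tool. Leaving out p16-DTR 3 gave 1 call with edgeR, leaving out control 2 gave 3, and leaving out each other library gave 0.

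Genes of the naive and central memory program were mostly lower in libraries labelled p16-DTR. Of its 20 genes, 13 had an unadjusted p below 0.05 and all of them were lower, against 5.91% of all genes. In 12 of 20 all libraries labelled p16-DTR lay below all controls (7.78% of all genes), and in 1 more all lay above. The median log2 fold change of the list was -0.54, against -0.000909 for all genes tested. DESeq2 called 9 of the 20 lower and none higher, against 0.839% and 1.32% of all genes.

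Satb1, a chromatin organiser of quiescent T cells (ENSMUSG00000023927, chromosome 17, 51736187 to 51833290, minus strand), stood at 426, 383 and 413 CPM in libraries labelled p16-DTR and at 954, 716 and 1082 CPM in the controls. All 3 controls lay well above the others, at a log2 fold change of -1.20 with a standard error of 0.15 and an edgeR adjusted p of 0.0707. Bach2, a repressor of effector differentiation, stood at 542, 449 and 537 CPM against 1009, 798 and 1029 CPM, again without overlap (log2 fold change -0.92, edgeR adjusted p = 0.0759). Ccr7, the receptor that guides T cells into lymph nodes, stood at 150, 102 and 190 CPM against 314, 245 and 411 CPM. Its groups were apart by a smaller gap, with p16-DTR 3 nearest to control 2 (log2 fold change -1.16, edgeR adjusted p = 0.158). Lef1 and Tcf7, transcription factors of naive and memory T cells, had log2 fold changes of -0.92 and -0.58, and Foxp1, which maintains quiescence, of -0.53, all without overlap. With the Il17a or Il17f cells added back the differences were smaller, at -0.60 for Bach2, -0.67 for Ccr7, -0.44 for Lef1, -0.34 for Tcf7 and -0.26 for Foxp1, while Satb1 stood at -1.08.

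Igfbp4, a secreted binding protein found in naive CD4 cells, had the largest difference of the list. It stood at 92.3, 40.6 and 55.8 CPM against 216, 165 and 203 CPM, a log2 fold change of -1.67 with an edgeR adjusted p of 0.105. The abundant factor Klf2, which drives the egress receptor S1pr1, differed little, with 823 ± 46.0 CPM against 916 ± 71.9 CPM (SD, n = 3, log2 fold change -0.18). S1pr1 itself had a log2 fold change of -0.27 with overlapping groups, though the share of thinned cells with it was lower without overlap (58.8% ± 1.30 against 68.3% ± 4.198; SD, n = 3).

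Genes of type 1 and cytotoxic T cells stood on the other side. Of 22 tested, 12 had an unadjusted p below 0.05 and all 12 were higher in libraries labelled p16-DTR, against 6.57% of all genes. The groups did not overlap in 9, all higher (11.1% of all genes), and the median log2 fold change was 0.65. DESeq2 called 7 of them higher (1.32% of all genes). Several of these genes are shared with CD8 and natural killer cells. All 5 natural killer markers tested had a log2 fold change above 0, with a median of 1.39, and 2 of them, Prf1 and Gzma, had an unadjusted p below 0.05 (6.57% of all genes). The 7 natural killer markers summed to 65.9 to 148 CPM in libraries labelled p16-DTR and 26.2 to 48.6 CPM in the controls. Of the defining ones, Klrb1c was found in 4.04% and 2.08% and Ncr1 in 0.284% and 0.230% of thinned cells. Both overlapped between the groups, and Ncr1 was listed at 0 in p16-DTR 1 and in controls 2 and 3. Of gamma-delta markers other than Trdc, all 3 tested were above 0 with a median of 1.37. Among them 1, Tcrg-C2, had an unadjusted p below 0.05 (6.57% of all genes). Tcrg-C1 was found in 4.05% against 1.52% of thinned cells, with overlap. The part of such cells in the cytotoxic result was not tested.

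Ccl5, a chemokine of effector and memory T cells (ENSMUSG00000035042, chromosome 11, 83525778 to 83530518, minus strand), stood at 2974, 2893 and 1853 CPM in libraries labelled p16-DTR and at 490, 754 and 770 CPM in the controls. The lowest of the former lay above the highest of the latter by more than the spread within the controls. The log2 fold change of 1.91 had a standard error of 0.23 and an edgeR adjusted p of 0.0707. The mean over the 6 libraries was 1622 CPM. Nkg7, a protein of cytotoxic granules, stood at 406, 607 and 456 CPM against 223, 212 and 182 CPM (log2 fold change 1.23, edgeR adjusted p = 0.0707). Here too every control lay below every other library.

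Most granzyme and killing genes named here followed the same order of groups. Gzmk, a granzyme of memory T cells, stood at 201, 234 and 136 CPM against 68.7, 89.2 and 58.7 CPM, a log2 fold change of 1.38. Gzmb, the main apoptosis-inducing granzyme, was scarcer and more variable, with 120, 94.4 and 48.8 CPM against 24.1, 6.70 and 12.3 CPM, and a log2 fold change of 2.61. Fasl, the Fas ligand, had 154 ± 15.3 CPM against 80.2 ± 13.9 CPM (SD, n = 3). Eomes, a transcription factor of cytotoxic and memory cells, had 130 ± 31.3 CPM against 55.0 ± 13.7 CPM, and Prf1, the pore former perforin, 47.0 ± 19.3 CPM against 16.9 ± 1.82 CPM (SD, n = 3). The groups did not overlap for any of these 5 genes, and their edgeR adjusted p lay between 0.0967 and 0.127. Gzma, a granzyme of natural killer and CD8 T cells, did overlap, at 15.9, 45.3 and 48.5 CPM against 19.0, 3.96 and 5.95 CPM, with p16-DTR 1 below control 1 (log2 fold change 1.99, edgeR adjusted p = 0.264). Ifng, the defining cytokine of type 1 cells, was closer between groups at 59.2, 72.7 and 92.4 CPM against 57.4, 46.6 and 37.3 CPM. For Tbx21, the master regulator of type 1 cells, p16-DTR 1 lay below control 1 and the groups overlapped.

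**Figure D2:**
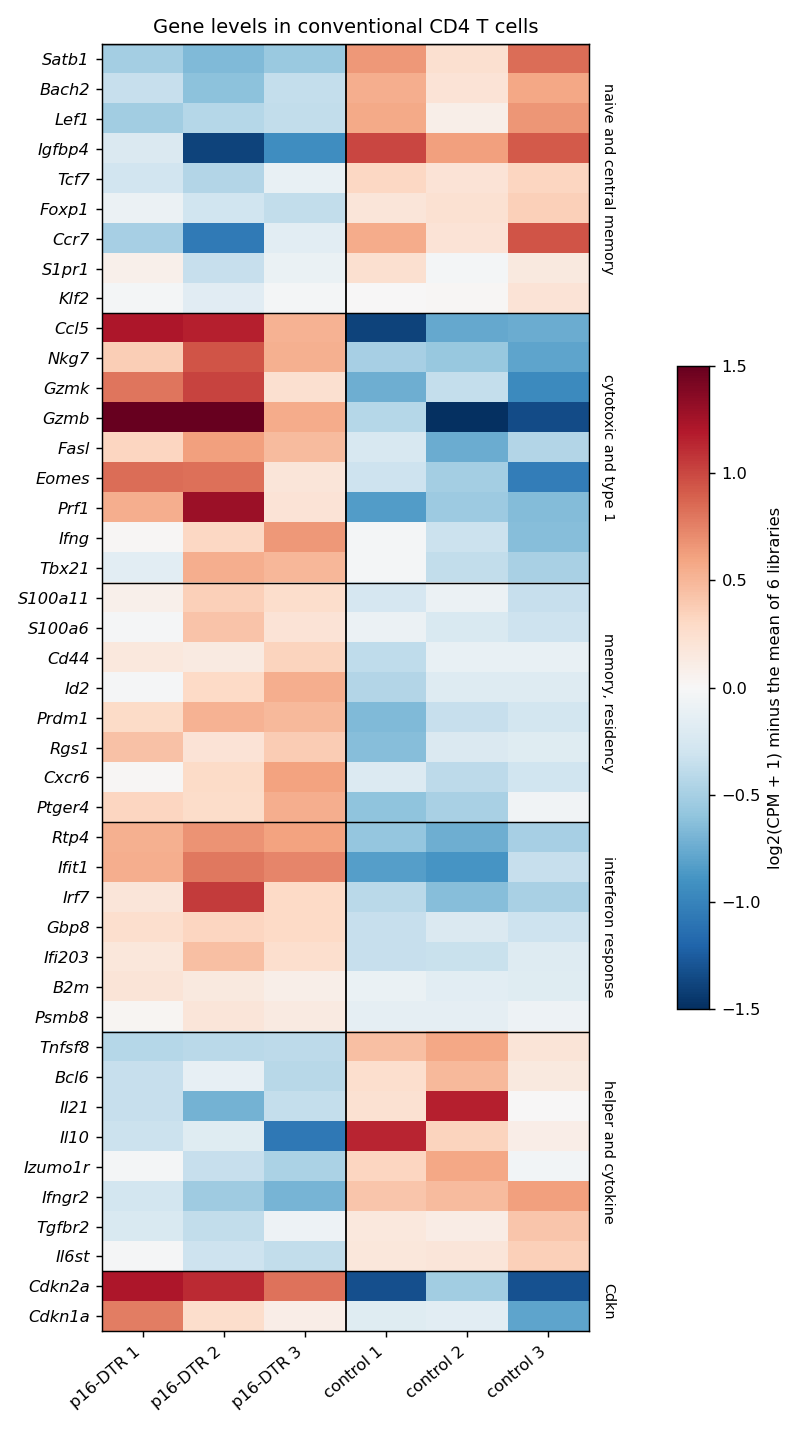
Levels of genes of 6 functional groups in conventional CD4 T cells, in rows, for the 6 libraries, in columns; colour gives log2(CPM + 1) minus the mean of the 6 libraries, from -1.5 (blue) to 1.5 (red). Satb1, Bach2 and Lef1 are blue in all 3 libraries labelled p16-DTR, and Ccl5, Nkg7 and Gzmk are red in all 3.

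Interferon-response genes, which cells switch on when interferons bind their receptors, stood mostly higher in libraries labelled p16-DTR. Of 53 tested, 50 had a log2 fold change above 0 and 3 below. None was called by edgeR, but 26 had an unadjusted p below 0.05, all higher (background 6.57%), and in 31 the groups did not overlap, again all higher (background 11.1%). The median log2 fold change was 0.44, smaller than for the cytotoxic list, and DESeq2 called 8 higher (1.32% of all genes). Rtp4, an interferon-induced chaperone, stood at 24.1, 26.6 and 25.3 CPM against 10.6, 9.44 and 11.3 CPM (log2 fold change 1.25, edgeR adjusted p = 0.0707). Both groups were tight around their means. Ifit1, an antiviral RNA sensor, had 16.6 ± 1.53 CPM against 5.84 ± 1.47 CPM, and Irf7, the amplifier of type I interferon, 57.5 ± 20.2 CPM against 26.9 ± 2.29 CPM (SD, n = 3), where p16-DTR 2 was the highest at 80.8 CPM.

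Abundant members differed by smaller amounts. Psmb8, a subunit of the immunoproteasome, stood at 393, 435 and 421 CPM against 350, 351 and 365 CPM, a log2 fold change of 0.21. Samhd1, a nucleotide hydrolase that restricts viruses, had the same log2 fold change of 0.21, and for both genes the groups did not overlap. B2m, the light chain of MHC class I, stood at 2727, 2654 and 2552 CPM against 2229, 2148 and 2117 CPM (log2 fold change 0.27, edgeR adjusted p = 0.139). The guanylate-binding protein gene Gbp8 and the DNA sensor family member Ifi203 had log2 fold changes of 0.57 and 0.56.

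Effector memory genes stood mostly higher in libraries labelled p16-DTR. Their list held Ccl5, given above with a log2 fold change of 1.91, which was not in the type 1 and cytotoxic list. Of 24, 8 had an unadjusted p below 0.05 and were higher, none lower, against 6.57% and 5.91% of all genes, and 23 had a log2 fold change above 0, with a median of 0.37. Among them S100a11, a calcium-binding protein of activated cells, stood at 582, 708 and 663 CPM against 463, 519 and 433 CPM, and the hyaluronan receptor Cd44 at 480, 472 and 543 CPM against 330, 398 and 399 CPM. S100a6 and Id2, a regulator of effector fate, had log2 fold changes of 0.40 and 0.54. S100a6 and Cd44 are also neutrophil transcripts, with UMIs in 97.6% and 99.3% of barcodes of the S100a8 and S100a9 class, and UMIs of S100a8 with S100a9 were themselves higher in these cells of libraries labelled p16-DTR (3.41 to 14.7 against 0.230 to 2.95 per 10000). The share of thinned cells with S100a8 (7.90% against 7.82%) or S100a9 (9.05% against 10.3%) was close between the groups, and 89.3% to 98.2% of the neutrophil UMIs of libraries labelled p16-DTR sat in the top 5% of cells. Their part in the result was not tested. Residency genes were more mixed: of 17, 4 had an unadjusted p below 0.05, all higher (6.57% of all genes), and 11 had a log2 fold change above 0, with a median of 0.07. These 4 were Prdm1, which encodes Blimp-1 (56.9 ± 5.15 CPM against 30.9 ± 4.41 CPM), Rgs1, which damps chemokine signals (353 ± 29.9 against 221 ± 36.8 CPM), the prostaglandin receptor Ptger4 (105 ± 10.8 against 62.0 ± 13.1 CPM) and the lung-homing receptor Cxcr6 (102 ± 21.1 against 66.2 ± 4.34 CPM; SD, n = 3). With the Il17a or Il17f cells added back, Cxcr6, Cd44 and S100a6 had log2 fold changes of -0.72, -0.13 and -0.12, so their direction depended on the gate, and Rgs1 and Id2 stood at 0.18 and 0.30.

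Checkpoint and aged-memory genes split. Of 20, 4 were higher and 6 lower at an unadjusted p below 0.05, against backgrounds of 6.57% and 5.91%. Tnfsf8 (chromosome 4, 63831308 to 63861347, minus strand) stood at 372, 380 and 382 CPM in libraries labelled p16-DTR and at 688, 755 and 574 CPM in the controls. The former were almost equal and all below the controls (log2 fold change -0.85, standard error 0.09, edgeR adjusted p = 0.0707). Entpd1, the ectonucleotidase CD39, went the other way with 147, 157 and 192 CPM against 80.4, 94.1 and 70.6 CPM (log2 fold change 1.00, edgeR adjusted p = 0.0759). Pdcd1, which encodes PD-1, had 80.3 ± 2.54 CPM against 57.3 ± 10.1 CPM, and the inhibitory receptor gene Btla 117 ± 4.59 CPM against 154 ± 16.9 CPM (SD, n = 3). Cd160, a receptor shared with cytotoxic cells, had a log2 fold change of 1.69 at 15.2 to 21.0 CPM against 3.57 to 6.40 CPM. Tox, a factor of chronically stimulated cells, and Ctla4, the CTLA-4 receptor gene, were abundant and overlapped, with 811 ± 57.0 against 960 ± 246 CPM and 710 ± 18.6 against 760 ± 90.9 CPM (SD, n = 3).

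Other helper programs were examined by the same counts. Of 12 type 2 genes, 1 was higher and 2 lower at an unadjusted p below 0.05, against 6.57% and 5.91% of all genes. Of 13 follicular helper genes, 5 were lower and 1 higher at an unadjusted p below 0.05, against 5.91% and 6.57% of all genes. Bcl6, the regulator of follicular helper cells, stood at 54.4, 63.6 and 51.6 CPM against 82.9, 97.5 and 77.1 CPM (log2 fold change -0.62, edgeR adjusted p = 0.119), without overlap. Il21, their cytokine, was scarce at 7.74 to 10.3 CPM against 13.3 to 31.1 CPM. Gata3, the regulator of type 2 cells, stood at 96.2, 171 and 150 CPM against 115, 169 and 154 CPM and overlapped fully (log2 fold change -0.09). Stat4, which relays interleukin-12 signals in type 1 cells, stood at 584, 750 and 692 CPM against 741, 602 and 647 CPM (log2 fold change 0.00, edgeR adjusted p = 0.996). Il7r, the interleukin-7 receptor gene of naive and memory cells, stood at 1017, 855 and 1136 CPM against 830, 973 and 1147 CPM (log2 fold change 0.00, edgeR adjusted p = 0.998). Both overlapped between the groups, and the sign of their small differences changed with the libraries left out. Il10, an inhibitory cytokine, had 39.3 ± 12.1 CPM against 83.7 ± 34.3 CPM (SD, n = 3), but was found in 11.7% and 11.9% of cells before thinning, with 85.5% and 90.7% of its UMIs in the top 5% of cells. Of 16 type 17 genes that the rule did not use, 6 had an unadjusted p below 0.05, all lower (5.91% of all genes), among them the receptors Il1r1, Ccr6 and Il17re, at 15.5, 1.22 and 1.01 mean CPM against 27.0, 5.98 and 4.49. Ccr6 rested on 22 against 69 UMIs and Il17re on 13 against 50, each with up to 13 in a single control cell. Type 17 cells without a captured UMI of Il17a, Il17f or Il23r pass the rule, and their part in this result was not tested. The most abundant genes of the type 17 list overlapped between the groups: Rora, which encodes a nuclear receptor of type 17 and innate lymphoid cells, had 738 ± 175 against 718 ± 75.5 CPM, and Tmem176b, a membrane protein gene, 95.8 ± 42.4 against 103 ± 13.7 CPM (SD, n = 3). Ikzf2, the gene of the transcription factor Helios, had 228 ± 32.8 against 283 ± 59.5 CPM, and Ahnak, a large scaffold protein gene, 1190 ± 219 against 978 ± 50.9 CPM (SD, n = 3), both with overlap. As a share of thinned cells, Ahnak was higher without overlap (86.8% against 75.9%).

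Of 27 cytokine receptor genes, 4 were higher and 6 lower at an unadjusted p below 0.05, against 6.57% and 5.91% of all genes. Ifngr2, the signalling chain of the interferon-gamma receptor, stood at 64.6, 53.7 and 47.8 CPM against 105, 109 and 120 CPM (log2 fold change -1.04, edgeR adjusted p = 0.0707). The ligand-binding chain Ifngr1 overlapped between groups with 753 ± 32.6 CPM against 658 ± 92.0 CPM (SD, n = 3). Tgfbr2 and Il6st, receptor chains for TGF-beta and for interleukin 6, had log2 fold changes of -0.48 and -0.50, and Il2rb, shared by the interleukin 2 and 15 receptors, of 0.42, all without overlap. Il6st stood at -0.06 with the Il17a or Il17f cells added back.

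**Figure D3:**
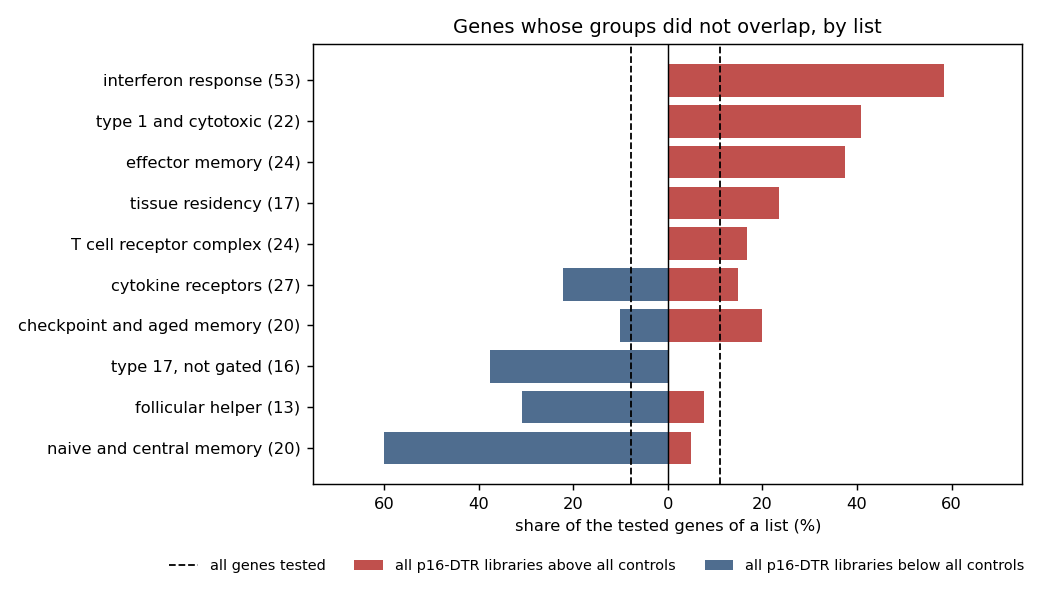
Share of the tested genes of a list, number in brackets, in which all libraries labelled p16-DTR lay above (red, right) or below (blue, left) all controls; dashed lines give the shares over all 12159 genes, 11.1% and 7.78%. The naive and central memory list extends to the left and the interferon, type 1 and effector memory lists to the right.

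The 15 smallest p-values belonged to Cd14, Atp8a2, Hip1, Tnfsf8, Plin2, Rtp4, Tmlhe, Tubb2a, Ifngr2, Ccl5, Patj, St8sia6, Nkg7, Satb1 and Cdkn2a, none of them called by edgeR. Atp8a2, a phospholipid flippase, stood at 93.8, 83.3 and 122 CPM against 29.2, 20.7 and 28.1 CPM, a log2 fold change of 1.91. Hip1, a clathrin adaptor, had 165 ± 2.62 CPM against 95.6 ± 7.06 CPM, and Plin2, a coat protein of lipid droplets, 49.5 ± 3.68 CPM against 23.5 ± 2.52 CPM (SD, n = 3). Lower were St8sia6, a sialyltransferase, with a log2 fold change of -1.66, Patj, a polarity scaffold, with -0.99, Tmlhe, an enzyme of carnitine synthesis, with -0.89, and Tubb2a, a beta-tubulin, with -0.86. The log2 fold change of Plin2, 1.05, was 0.55 with the gate on thinned cells and 0.64 with other lineages left out, and 71.5% of its UMIs in libraries labelled p16-DTR sat in the top 5% of cells. With the Il17a or Il17f cells added back, Hip1 went from 0.76 to 0.32, Tubb2a to -0.48, Tmlhe to -0.52 and Patj to -0.49. Without type 17 markers Hip1 stood at 1.20 and Tubb2a at -1.64.

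Cdkn2a (ENSMUSG00000044303, chromosome 4, 89274471 to 89294653, minus strand), which encodes p16 and a second protein from another reading frame, was present in these cells too. It stood at 19.5, 18.3 and 14.6 CPM in libraries labelled p16-DTR, from 76, 118 and 96 UMIs, and at 2.56, 5.18 and 2.58 CPM in the controls, from 7, 17 and 13 UMIs. The groups lay far apart, with a log2 fold change of 2.32, a standard error of 0.30 and an edgeR adjusted p of 0.0707. In thinned cells a Cdkn2a UMI was found in 9.28% ± 1.97 against 1.66% ± 2.27 (SD, n = 3). Barcodes of the S100a8 and S100a9 class, thinned alike, held it in 1.52% of 2437 and 0.107% of 1873 cases. Gene counts do not separate the transcripts of this locus. Cdkn1a, which encodes the cell cycle inhibitor p21, stood at 176, 124 and 111 CPM against 90.6, 92.3 and 59.5 CPM (log2 fold change 0.74, edgeR adjusted p = 0.240). Its log2 fold change was 0.26 without the barcodes rich in markers of other lineages, 0.27 with cells holding a marker of another lineage left out, 0.31 with the gate applied to thinned cells and 0.07 with the Il17a or Il17f cells added back. Without cells carrying type 17 markers it was larger, at 0.95, and called (edgeR adjusted p = 0.0401). DESeq2 also called Cdkn1a on all cells (log2 fold change 0.74, DESeq2 adjusted p = 0.0415). The share of thinned cells with a Cdkn1a UMI overlapped between the groups (18.5% ± 1.84 against 14.9% ± 2.16, SD, n = 3). S100a8 and S100a9 barcodes held one in 54.9% of cases, which may be their own expression and so does not measure free RNA. tdTomato had 4, 3 and 3 UMIs in these cells of libraries labelled p16-DTR and 0 in 587 control cells, which allows up to 0.511% of cells with a UMI.

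Transcripts of other lineages differed between the groups and are given here because they bear on the values above. Of 8 myeloid markers tested, 6 had an unadjusted p below 0.05, all higher in libraries labelled p16-DTR (6.57% of all genes), with a median log2 fold change of 1.58. Macrophage and monocyte markers summed to 13.5 to 15.3 UMIs per 10000 in these libraries and 3.29 to 7.23 in the controls, and S100a8 with S100a9 to 3.41 to 14.7 and 0.230 to 2.95. Of the macrophage and monocyte UMIs, 90.3% to 96.9% sat in the top 5% of cells. Lyz2, the lysozyme of myeloid cells, stood at 1355, 1172 and 1230 CPM against 618, 359 and 263 CPM. Cd14, the monocyte receptor with the smallest p of all genes, had a UMI in 97 of 948 and 46 of 587 cells, and 95.8% and 93.9% of its UMIs in the top 5% of cells of the 2 groups. For Nkg7 that share was 30.5% and 44.7%, and for Satb1 40.9% and 24.5%. For the scarcer genes Gzma, Gzmb, Cd160 and Ifit1 it was 99.3%, 69.2%, 80% and 83.9% in libraries labelled p16-DTR. In the controls it was 100%, 100%, 100% and 94.1%, where Gzma, Gzmb and Cd160 had UMIs in under 5% of cells. Alveolar epithelial markers summed to 21.2 UMIs per 10000 in p16-DTR 3 and to 3.13 or less in each other library. No doublet caller was run.

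Leaving out the barcodes with more than 10 UMIs over 34 markers of other lineages left 795 and 498 cells, an alternative chosen after seeing the data. The medians of the naive, cytotoxic and interferon lists were then -0.51, 0.76 and 0.44, that of the effector memory list 0.33 and that of the residency list 0.27, against 0.07 with all cells. edgeR then called 51 of 10330 genes (0.494%), 27 higher (0.261%) and 24 lower (0.232%), of which 41 were also called by DESeq2 on all cells. Called genes included Ccl5 (log2 fold change 2.03, adjusted p = 0.0155), Nkg7 (1.10, 0.0112), Fasl (0.98, 0.0112), Gzmb (3.00, 0.0290), Cdkn2a (2.52, 0.0152), Atp8a2 (1.79, 0.00804), Hip1 (1.06, 0.0106) and Dusp2, a MAP kinase phosphatase (1.20, 0.0195). Satb1 (-1.08, 0.0290), Igfbp4 (-1.88, 0.0290), Ccr7 (-1.23, 0.0487) and Ifngr2 (-1.40, 0.00804) were called lower, and Tnfsf8 was not called (-0.66, 0.0697). Gbp8 and Ifi203 were the 2 interferon genes called (adjusted p = 0.0290 and 0.0212).

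The cells that carry these transcripts were counted next, as the share with a UMI after thinning to 5000 UMIs, which kept 932 and 580 cells and left out 16 and 7 with fewer. Of 91 markers, 18 (19.8%) were higher in all 3 libraries labelled p16-DTR and 12 (13.2%) lower. No share over all genes was computed for this measure. The 91 include markers of other lineages. Among the 18 were the macrophage or monocyte markers Lyz2, Csf1r and Adgre1 and the B cell marker Cd79b. Among the 12 were the B cell marker Ebf1 and the endothelial marker Pecam1. The smallest Benjamini-Hochberg adjusted p of the exact permutation tests was 0.303. Ccr7 was found in 22.4%, 20.6% and 22.4% of cells against 40.7%, 36.4% and 41.5%. Ccl5 was found in 45.7%, 45.1% and 49.4% against 24.1%, 21.2% and 24.1%, and Nkg7 in 47.6%, 54.6% and 56.4% against 29.0%, 25.4% and 25.2%. For these 3 markers the gap between the groups was larger than the range within either. In S100a8 and S100a9 barcodes Ccr7, Ccl5 and Nkg7 were found in 2.39%, 3.81% and 0.951%. Without thinning, Ccl5 was found in 54.6% and Nkg7 in 59.5% of all cells labelled p16-DTR, against 28.4% and 31.5% of control cells.

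Further markers were higher by smaller margins. Gzmk was found in 29.3% ± 4.08 against 13.7% ± 3.73, Cxcr6 in 27.0% ± 3.03 against 16.2% ± 1.42, Rgs1 in 60.8% ± 4.82 against 44.7% ± 7.69 and the type 1 chemokine receptor Cxcr3 in 44.9% ± 4.50 against 32.8% ± 4.47 (SD, n = 3). Tcf7 was lower, with 64.1% ± 5.21 against 78.6% ± 0.779, as were Bcl6 (19.0% ± 1.62 against 25.8% ± 1.59) and Izumo1r, the folate receptor 4 of follicular helper and anergic cells (22.9% ± 1.96 against 29.5% ± 1.47; SD, n = 3). Bcl6 is also a neutrophil transcript here, with UMIs in 47.9% of S100a8 and S100a9 barcodes, so those barcodes do not measure its free RNA. Of the other follicular helper markers, Sh2d1a, the signalling adaptor SAP, was higher without overlap (45.2% ± 2.39 against 37.5% ± 2.59), Il21 lower (2.27% against 5.35%), and Cxcr5 overlapped (14.1% ± 6.07 against 10.9% ± 3.39; SD, n = 3). Lef1, apart in summed counts, overlapped as a share (53.3% ± 5.69 against 64.5% ± 6.86; SD, n = 3), with p16-DTR 2 above control 2. Pdcd1, Tox, Gata3 and Cd5 overlapped between the groups. Pecam1, an adhesion molecule also used as an endothelial marker, was found in 46.2% ± 0.887 against 61.0% ± 5.10 (SD, n = 3), while the endothelial gene Cdh5 was found in 6.93% and 5.61%.

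**Figure D4:**
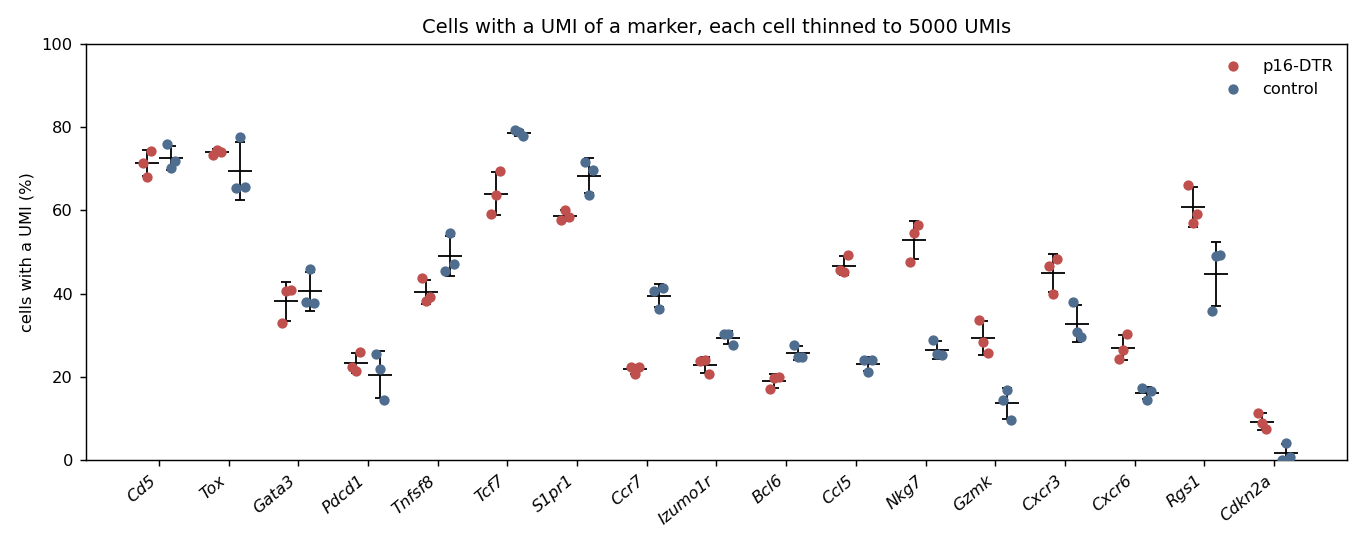
Percentage of conventional CD4 T cells with at least 1 UMI of a marker after thinning each cell to 5000 UMIs; each point is 1 library, with the mean and SD of 3 libraries in black. Ccr7, Ccl5, Nkg7, Gzmk and Cdkn2a separate the groups, and Cd5, Tox, Gata3 and Pdcd1 overlap.

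Markers were then compared within cells. For 190 pairs of markers, the share of cells with the second was compared between cells with and without the first within each library, and tested over the 6 libraries with an exact two-sided sign-flip test whose smallest possible p is 0.031. At that floor stood 89 pairs, with an adjusted p of 0.0667, and none passed 0.05. Cells with Ccl5 held Nkg7 in 82.0% ± 6.68 and cells without it in 17.3% ± 7.97 of cases (SD over libraries, n = 6), and Gzmk in 49.8% against 6.69%. Cells with Ccr7 held Ccl5 in 8.90% and cells without it in 45.4%. Ccl5 and Ccr7 marked mostly separate cells.

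Tnfsf8 was found less often in cells with cytotoxic transcripts, a difference at the floor of the test that did not pass after adjustment. It was found in 17.5% ± 4.29 of Ccl5-positive and 59.6% ± 4.61 of Ccl5-negative cells (SD over libraries, n = 6), and the difference had this sign in 6 of 6 libraries. Nkg7-positive and Nkg7-negative cells held it in 21.7% and 60.5%, and Gzmk-positive and Gzmk-negative cells in 18.4% and 52.0%. Cells with Pdcd1 held Tnfsf8 in 62.0% against 40.2%, Tox in 90.3% against 66.6%, and Ikzf2, the gene of Helios, in 53.8% against 28.2%. Cxcr5, the follicle-homing receptor, went with Izumo1r (45.7% against 23.5%), and Cxcr6 with Gata3 (50.3% against 36.6%) and with less Tox (53.0% against 76.8%). Ccl5-positive cells held Cdkn2a in 6.07% and Ccl5-negative cells in 5.35%, and Cdkn1a in 14.6% and 17.4%, with neither sign shared by all 6 libraries. Ccr7-positive cells held Cdkn1a in 10.99% and Ccr7-negative cells in 19.3%, lower in 6 of 6 libraries, which is at the floor of the sign-flip test.

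**Figure D5:**
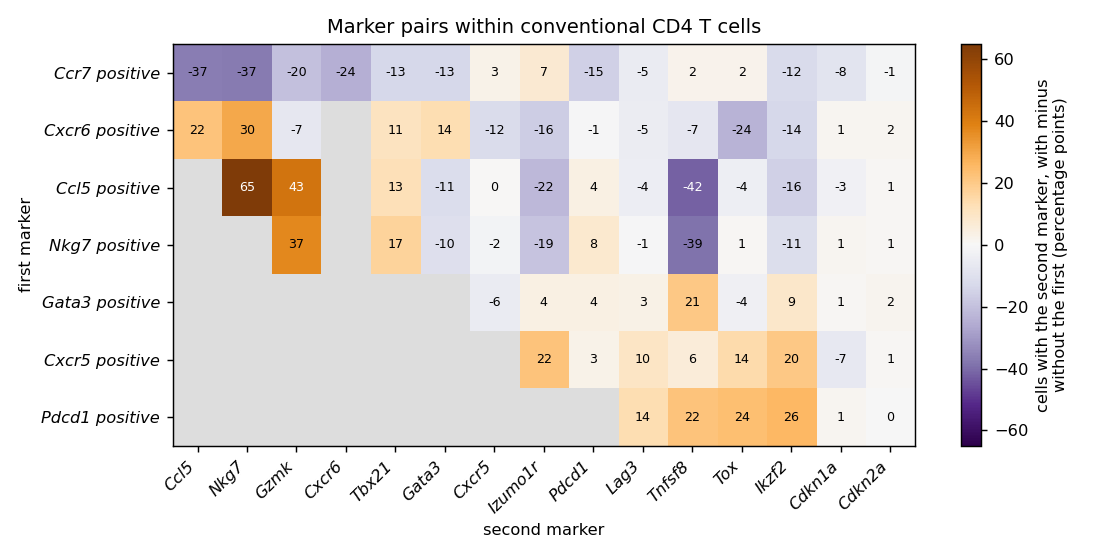
Difference in the share of thinned cells with the second marker (columns) between cells with and without the first marker (rows), in percentage points, as the mean over 6 libraries; grey squares were covered by the reverse pair or not computed. The largest positive value shown is Nkg7 in Ccl5-positive cells, 64.7 points, and the most negative is Tnfsf8 in Ccl5-positive cells, -42.1 points.

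Splitting each library into cells with and without a Ccl5 or a Ccr7 UMI, a step added after the values were seen, gave the group difference within each class. The classes were set on thinned cells, so a negative class also holds cells that lost their UMIs in thinning. Ccl5 was found in 46.7% and 23.1% of thinned cells, and in 54.64% and 28.45% of cells before thinning. The part of such cells in the differences among negative cells was not tested. Among Ccl5-negative cells Tnfsf8 was found in 61.0% ± 2.90 in libraries labelled p16-DTR and 58.2% ± 6.23 in the controls, and among Ccl5-positive cells in 16.8% ± 4.95 and 18.2% ± 4.48 (SD, n = 3). Both pairs overlapped, unlike the share over all cells. Split by Ccr7, however, the groups were apart in both classes and in opposite directions: Tnfsf8 was found in 54.1% ± 5.13 against 41.3% ± 6.00 of Ccr7-positive and in 36.7% ± 4.59 against 54.1% ± 5.84 of Ccr7-negative cells (SD, n = 3). Cdkn2a did not overlap in either Ccl5 class, with 9.41% against 1.28% of Ccl5-negative and 9.20% against 2.93% of Ccl5-positive cells. The Ccl5-positive class held 35, 35 and 65 control cells, with Cdkn2a in 0%, 5.71% and 3.08% of them. The lowest library labelled p16-DTR stood at 6.35% there. Among Ccl5-negative cells the groups were also apart for Ccr7 (36.3% ± 2.67 against 48.2% ± 4.57), Satb1 (42.4% ± 6.32 against 56.5% ± 7.62) and Gzmk (9.68% ± 2.17 against 3.70% ± 1.52; SD, n = 3). Among Ccl5-positive cells these 3 overlapped, with Ccr7 in 5.37% against 10.8%, Satb1 in 29.8% against 39.2% and Gzmk in 52.1% against 47.5%. Other markers were apart among Ccl5-positive cells, with Bach2 (63.9% against 82.0%) and Pecam1 (30.4% against 43.9%) lower and Nkg7 (86.8% against 77.1%) and Tox (74.4% against 63.4%) higher. Nkg7 (23.3% against 11.3%) and Pecam1 (60.04% against 66.26%) were also apart among Ccl5-negative cells, in the same directions, while Bach2 and Tox overlapped there. Cxcr6 (19.12% against 11.97%) and Rgs1 (54.32% against 39.3%) were higher without overlap among Ccl5-negative cells. Both overlapped among Ccl5-positive cells. Tcf7 overlapped among Ccl5-negative cells (78.1% against 83.2%). Among Ccl5-positive cells it was lower (48.0% against 64.2%), but by a narrow gap, at 55.03% in p16-DTR 3 and 55.38% in control 3.

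T cell receptor variable genes are captured only in part by 3' chemistry. A Trbv UMI was found in 44.8% to 62.9% of the cells of a library. Among cells with exactly 1 Trbv gene, Trbv2 was the most frequent in 4 of 6 libraries and tied with Trbv13-1 in control 2, in 30 of 117, 23 of 143 and 27 of 159 cells of those labelled p16-DTR and in 10 of 88 and 21 of 119 cells of controls 2 and 3. In control 1 Trbv26 led with 9 of 73 cells. Between 16 and 21 Trbv genes were seen per library.

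The group effect was set against that in regulatory and in CD8 T cells of the same libraries, with the library as a block and the difference as the tested term. Against regulatory cells (248 cells) edgeR called none of 11490 genes, with 462 (4.02%) at an unadjusted p below 0.05; DESeq2 was not run for this term. Against CD8 T cells (2308 cells) it called 2 of 13145 genes (0.0152%), Kdr and Car4, with 936 (7.12%) at an unadjusted p below 0.05, and neither was called without p16-DTR 1, p16-DTR 2 or control 1. Nkg7 and Satb1 came close, with adjusted p of 0.0814 and 0.0846 for the difference. The log2 fold change of Nkg7 was 1.23 in conventional CD4 and 0.30 in CD8 T cells, and that of Satb1 was -1.20 and -0.13. For Ccl5, at 1.91 and 0.36, the adjusted p of the difference was 0.134. Of the 15 genes with the smallest p, Cdkn2a, Atp8a2, Rtp4 and Ifngr2 had similar log2 fold changes in CD8 T cells. These stood at 2.80, 1.71, 1.08 and -0.89 there, none of them called. Tnfsf8 and St8sia6 had the opposite sign in CD8 T cells, at 0.33 and 0.06, and the others had smaller values of the same sign. In regulatory cells the picture differed, again with none of the 15 called. Cdkn2a stood at 2.75 there, Tnfsf8 at -1.12 and Satb1 at -0.73, each with its sign in conventional cells. Ifngr2 and Nkg7 had the opposite sign in regulatory cells, at 0.26 and -0.39, and Hip1 stood at 0.02. The others kept their sign there, except Atp8a2, which has no value in regulatory cells.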

How the data were processed

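The authors deposited raw UMI counts per gene and barcode for 31054 features in each of 6 libraries (10x GEM-X 3' chemistry, per the labels), made with Cell Ranger 8.0.1 on mm10 per the submitters' processing notes; the annotation release is not given in the sources used here. Gene positions were taken from GENCODE M21 (GRCm38).

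Cells were gated on raw counts, with no clustering and no doublet caller, and their counts were summed per library. Genes with enough counts (filterByExpr) were tested by quasi-likelihood in edgeR 4.0.16 (R 4.3.3), with TMM factors and the group as the only term. Benjamini-Hochberg adjustment ran over all genes tested, Cd3e and Cd4 included. The genes of the gate were then left out of the counts of genes tested and called. CPM are per 1000000 UMIs of these cells. Standard errors were derived from the F statistic. DESeq2 1.42.0 and the settings of the closing section were alternatives. Differences against other T cells had the library as a block. Shares were tested with exact permutation tests (Python 3.11.15, scipy 1.17.1). Scripts were tested on simulated data.

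The cells and the gene lists were chosen with earlier results of these data known. Genes were named by a rule: Cdkn2a, Cdkn1a, tdTomato, the genes of the gate, the 15 smallest p, the most abundant genes and up to 2 abundant genes per list. Of the 91 genes this rule gives, 37 were followed over the alternatives, and most of the others are not described, a choice made after their values were seen. A further 42 genes, among them Bach2, Lef1, Igfbp4, Ccr7, Tcf7, Gzmk, Gzmb, Fasl, Eomes, Ifit1, Irf7, Gbp8 and Ifi203, were chosen after their values were seen. The labels number the samples of a group without tying each to a mouse, so p-values measure the spread between these samples, which may be technical. Some genes that these lists hold are not reported here by name.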

Additional observations from a re-analysis of the deposited data

Results flagged for a closer look

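Kdr and Car4, genes of lung capillary endothelium, differed in their group effect between conventional CD4 and CD8 T cells. The difference in log2 fold change was 2.86 for Kdr and 4.47 for Car4, each with an edgeR adjusted p of 0.0236. In conventional CD4 T cells Car4 stood at 66.2, 48.1 and 19.4 CPM in libraries labelled p16-DTR and at 4.38, 5.18 and 3.57 CPM in the controls. In CD8 T cells it stood at 20.2, 17.6 and 3.35 CPM against 20.1, 60.5 and 14.9 CPM. In libraries labelled p16-DTR, 55 of 948 conventional cells held a Car4 UMI and 66 a Kdr UMI, with up to 119 and 86 in a single cell. In the controls 26 and 42 of 587 cells held one, with up to 7 and 34. Kdr stood at 65.4, 35.0 and 21.7 CPM against 10.2, 47.2 and 5.55 CPM in conventional CD4 T cells, with the groups overlapping. Of the 258, 311 and 128 Car4 UMIs in libraries labelled p16-DTR, 6, 15 and 3 were left without the barcodes rich in markers of other lineages. Of the 12, 17 and 18 in the controls, 5, 0 and 11 were left. Kdr UMIs went from 255, 226 and 143 to 4, 11 and 11 in libraries labelled p16-DTR. In the controls they went from 28, 155 and 28 to 3, 4 and 10. Neither gene was called when p16-DTR 1, p16-DTR 2 or control 1 was left out.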

How the results depend on the processing

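The count of called genes, 0 with edgeR, was 263 with DESeq2, 87 with no filter on low counts, 195 without cells carrying type 17 markers that the rule did not use, 12 with the gate applied to thinned cells and 7 with the replicate number as a block. Alternatives added after seeing the data gave 69 without barcodes over 30000 UMIs, 51 without barcodes rich in other lineages and 165 with Il17a or Il17f cells added back. It was 0 with RLE or library-size scaling, a mitochondrial limit of 5%, at least 2 Cd4 UMIs, other lineages left out or equal cells per library, and 0 to 3 without 1 library. The count of genes called against CD8 T cells, 2 with all libraries, was 0 to 3 without 1 library.

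The replicate numbers did not pair the libraries: same-numbered libraries correlated at 0.136, -0.035 and 0.00871, and 2 of 6 libraries correlated best with their own number. The 7 calls under the block included Ccr7, Atp8a2, Bach2, Gzmk, Eomes and Dusp2.

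The difference in the share of Cd3e barcodes ranged from 1.29 to 3.64 points over the alternatives set for it. Equal cells per library was not among them, as it fixes the number of conventional cells but not of Cd3e barcodes. With Il17a or Il17f cells added back, log2 fold changes reversed for Klf2 (0.05), Tox (0.16), S1pr1 (0.01), Cd44 (-0.13), Ikzf2 (0.13), Ahnak (-0.08), S100a6 (-0.12) and Cxcr6 (-0.72). Gata3 (-0.09) lay between -0.27 and 0.12 without 1 library and was above 0 without p16-DTR 1 (0.12) or control 2 (0.02). It was also reversed at 0.02 with other lineages left out, 0.13 without type 17 markers and with Il17a or Il17f cells, 0.06 without barcodes over 30000 UMIs and 0.04 without barcodes rich in other lineages. Il7r, Stat4 and Rora, near 0, and Tmem176b (-0.15) also changed sign. Without 1 library, Il7r lay between -0.10 and 0.14, Stat4 between -0.08 and 0.10, Rora between -0.15 and 0.19 and Tmem176b between -0.55 and 0.05. Il7r was reversed without p16-DTR 1 (-0.00) or 3 (-0.10), without control 1 (-0.10) or 2 (-0.01), at -0.04 with 2 Cd4 UMIs and with the thinned gate, and at -0.15 with Il17a or Il17f cells. Stat4 was reversed without p16-DTR 2 (-0.08) or 3 (-0.02), without control 2 (-0.07) or 3 (-0.00), with 2 Cd4 UMIs (-0.04) and without type 17 markers (-0.07). Rora was reversed with the replicate block (-0.00), without p16-DTR 2 (-0.01) or 3 (-0.15), without control 1 (-0.00) or 2 (-0.05), with the thinned gate (-0.15) and with Il17a or Il17f cells (-0.55). Tmem176b was reversed without p16-DTR 3 (0.05) and with 2 Cd4 UMIs (0.01). Of 55 named genes with a log2 fold change of at least 0.5 in size, 20 shrank or turned by over 1.5 times and 3 grew with Il17a or Il17f cells added back, 7 and 2 with the thinned gate, 5 and 1 of 51 with other lineages left out and 2 and 5 of 50 without type 17 markers. It was 4 and 2 of 51 without barcodes rich in other lineages and 1 and 3 of 54 without barcodes over 30000 UMIs. With 1 library left out, S100a8, S100a9 and Kdr grew without control 2, Il17re without p16-DTR 1 and Ccr6 without p16-DTR 3. Il10 shrank or turned without control 1, Il21 without control 2 and Kdr without p16-DTR 1 or control 3. The cause was not tested. At 147 to 395 cells per library, genes at a few CPM rest on few UMIs.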
